A study of Arabidopsis thaliana with 15 samples.

Results

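The genes described here are 9 transcription factor genes that pattern the upper and lower faces of the Arabidopsis leaf. They are 4 YABBY genes (FIL, YAB2, YAB3 and YAB5), 3 KANADI genes (KAN1, KAN2 and KAN3), and the pair AS1 and AS2. They were chosen by locus identifier from the 33201 entries of an RNA-seq comparison between syd-5 and wild-type seedlings. All 9 had an entry and all 9 were among the 19868 genes the authors tested.

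The RNA came from whole 14-day-old Arabidopsis thaliana seedlings of the Col-0 ecotype, grown on plates in long days. The groups were the syd-5 mutant (3 libraries) and WT, the unmutated Col-0 line (3 libraries). SYD (SPLAYED) encodes an ATPase of SWI/SNF complexes, which move or evict nucleosomes, and syd-5 was the single mutant allele compared. The other 9 libraries of the series were chromatin immunoprecipitations and inputs, not analysed here. Whether the libraries of a genotype came from separately grown plants is not stated in the labels, and the spread behind the authors' p-values may be technical.

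A leaf starts with a side facing the meristem (adaxial) and a side facing away (abaxial), and the blade grows out where these meet. KANADI proteins promote abaxial identity and act against the HD-ZIP III factors of the adaxial side. YABBY genes are expressed on the abaxial side of leaf primordia and promote growth of the blade. AS1, a MYB protein, and AS2, a LOB-domain protein, act in a complex that keeps class 1 KNOX meristem genes and ARF3 repressed in leaves.

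The table holds 1 value per gene and genotype, read as FPKM (fragments scaled to transcript length and to the number of mapped fragments). No value per library was given, so that no standard deviation, interval or depth stands behind a level, and neighbours in an order of levels cannot be set against their spread. The words rose, fell and called are used only of genes whose q in the authors' deposited table did not exceed 0.05. Fold changes are on the log2 scale, with syd-5 divided by WT. The median over all tested genes with a finite fold was -0.02. SYD itself was at 2.53 FPKM in syd-5 and 13.1 FPKM in WT (q = 0.000351 in the authors' deposited table). This checks the label, although the SYD span is shared with another listed gene. A q of 0.000351 is the smallest in the authors' deposited table. It belongs to the smallest p of the authors' test, 5e-05, which 2831 genes share, so that it does not rank those genes.

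KAN3, KAN2, YAB2 and AS2 fell in syd-5, FIL rose, and YAB3, YAB5, KAN1 and AS1 were not called. Thus 5 of 9 genes were called, against 32.1% of all tested genes. In the downward direction 4 of 9 were called, against 18.0% of all tested genes, and in the upward direction 1 of 9, against 14.1%. A called fall of at least 2-fold was found for KAN3 and YAB2, 2 of 9, against 8.27% of all tested genes. The median log2 fold change of the 9 was -0.49. With 9 genes chosen by hand these shares describe the set and were not tested. In whole seedlings, fewer cells of a type and less RNA per cell cannot be told apart.

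**Figure D1:**
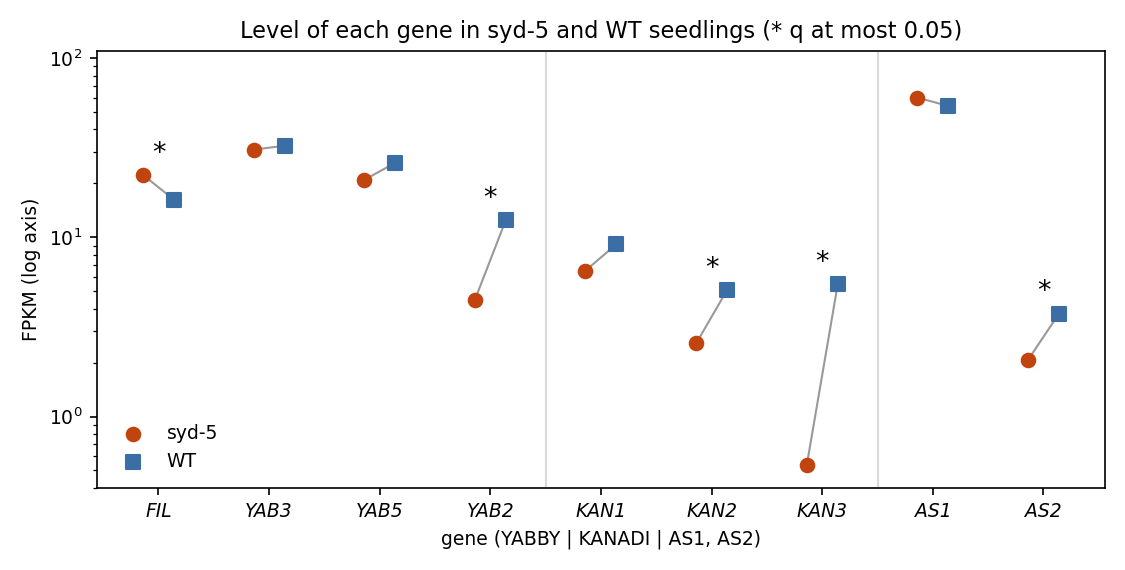
FPKM of each gene (log axis) in syd-5 (circles, left) and WT (squares, right), 1 value per genotype; lines join the values of a gene and asterisks mark q of at most 0.05. KAN3 has the longest line, with 0.534 FPKM in syd-5 and 5.46 FPKM in WT, and FIL is the only called gene with the higher value in syd-5.

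The KANADI genes were all lower in syd-5, and 2 of the 3 were called, against 18.0% of all tested genes called lower. The median log2 fold change of all tested genes with a finite fold, -0.02, also lay below 0. KAN3 (AT4G17695, TAIR10 chromosome 4, 9848032 to 9850704) was at 0.534 FPKM in syd-5 and 5.46 FPKM in WT. It fell 10.2-fold (log2 -3.35, with q = 0.000351 in the authors' deposited table), the steepest fall of the 9 genes. With a pseudocount of 1 FPKM on both values the fall is 4.21-fold, so that its size rests on the low syd-5 value. Among the 18447 tested genes with at least 1 FPKM in WT, 164 (0.889%), KAN3 included, had a log2 fold change at or below this value. That minimum was set on WT alone, the genotype in which KAN3 was higher. Among all tested genes, without the minimum, 1.13% had a log2 fold change below that of KAN3. KAN2 (AT1G32240, chromosome 1, 11625700 to 11630626) was at 2.56 FPKM in syd-5 and 5.08 FPKM in WT. It fell 1.98-fold (log2 -0.99, with q = 0.000351 in the authors' deposited table). KAN1 (AT5G16560, chromosome 5, 5405350 to 5411424), the founding member of the family, was at 6.52 FPKM in syd-5 and 9.16 FPKM in WT. This difference was not called (log2 -0.49, with q = 0.151 in the authors' deposited table). The span listed for KAN1 overlaps that of AT5G16550, which was at 27.4 FPKM in syd-5 and 27.1 FPKM in WT, so that the KAN1 value is less certain.

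The family's balance differed between the genotypes. Summed KANADI FPKM was 9.62 in syd-5 and 19.7 in WT, that is 48.8% of the WT sum. KAN1 made up 67.8% of the sum in syd-5 and 46.5% in WT, and KAN3 made up 5.55% in syd-5 and 27.7% in WT. The KAN2 share was 26.6% in syd-5 and 25.8% in WT. In terms of ratios, KAN1 exceeded KAN3 12.2-fold in syd-5 and 1.68-fold in WT (4.91-fold in syd-5 and 1.57-fold in WT with a pseudocount of 1 FPKM). These sums and shares carry no test. KAN4 (ATS), the KANADI gene known from the integuments of the ovule, was at 0.692 FPKM in syd-5 and 0.883 FPKM in WT and was not called (q = 0.549 in the authors' deposited table).

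**Figure D2:**
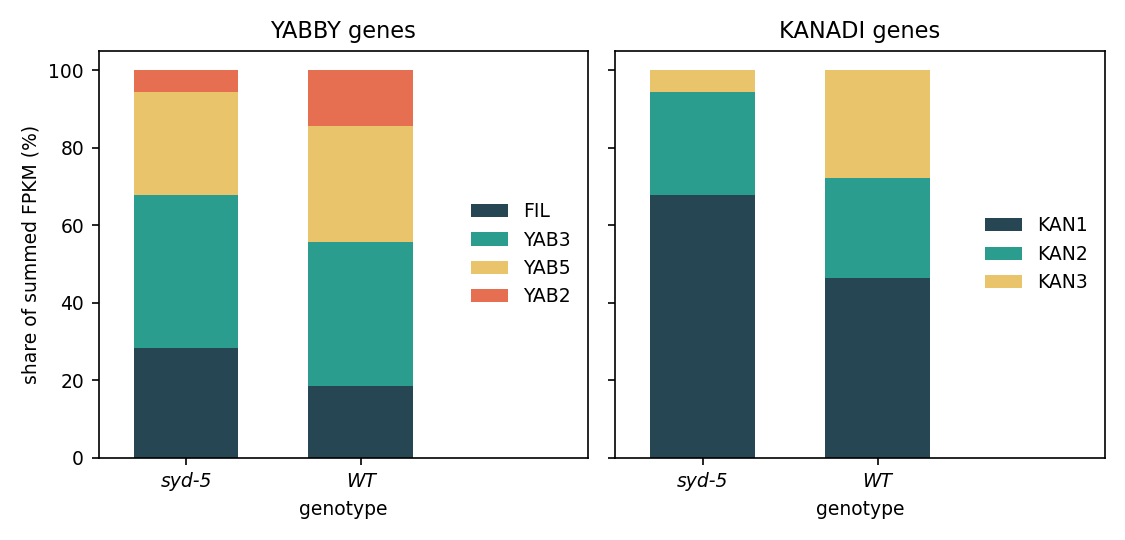
Share of the summed FPKM held by each YABBY gene (left) and each KANADI gene (right), with syd-5 before WT in each panel; 1 value per genotype and no error. The KAN3 segment is 5.55% in syd-5 and 27.7% in WT, and the YAB2 segment is 5.69% in syd-5 and 14.3% in WT.

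The YABBY genes went both ways. YAB2 (AT1G08465, chromosome 1, 2675813 to 2679781), a YABBY gene of leaves and other lateral organs, was at 4.48 FPKM in syd-5 and 12.5 FPKM in WT. It fell 2.79-fold (log2 -1.48, with q = 0.000351 in the authors' deposited table). FIL (AT2G45190, chromosome 2, 18628265 to 18630712), listed by RefSeq as AFO, acts in leaf and flower primordia. It was at 22.3 FPKM in syd-5 and 16.2 FPKM in WT. FIL rose 1.37-fold (log2 0.46, with q = 0.0200 in the authors' deposited table).

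YAB3 (AT4G00180, chromosome 4, 72552 to 75384), the sister gene of FIL with an overlapping function, was at 30.9 FPKM in syd-5 and 32.4 FPKM in WT. It was not called (log2 -0.07, with q = 0.765 in the authors' deposited table). YAB5 (AT2G26580, chromosome 2, 11303590 to 11306953), another YABBY gene expressed in leaves, was at 20.9 FPKM in syd-5 and 26.1 FPKM in WT. It was not called either (log2 -0.32, with q = 0.133 in the authors' deposited table). The sources used here do not give how reads shared between related genes were assigned.

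Summed YABBY FPKM was 78.6 in syd-5 and 87.2 in WT, that is 90.1% of the WT sum, so that this family's total lay nearer to WT than the KANADI total. Within it FIL held 28.4% in syd-5 and 18.6% in WT, and YAB2 held 5.69% in syd-5 and 14.3% in WT. FIL exceeded YAB2 4.98-fold in syd-5 and 1.30-fold in WT. YAB3 was the most abundant YABBY transcript in both genotypes, with 39.3% of the sum in syd-5 and 37.2% in WT. The YABBY genes of carpels and ovules were not tested by the authors. CRC was listed at 0 in syd-5 and at 0.469 FPKM in WT, and INO was listed at 0 in both.

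AS1 and AS2 did not move together. AS2 (AT1G65620, chromosome 1, 24398143 to 24400969) was at 2.07 FPKM in syd-5 and 3.75 FPKM in WT. It fell 1.81-fold (log2 -0.86, with q = 0.0134 in the authors' deposited table). Its partner AS1 (AT2G37630, chromosome 2, 15781615 to 15783433) was at 60.3 FPKM in syd-5 and 54.0 FPKM in WT. AS1 was not called (log2 0.16, with q = 0.424 in the authors' deposited table). It was the most abundant of the 9 genes in both genotypes and exceeded AS2 29.1-fold in syd-5 and 14.4-fold in WT.

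The falls lay among the less abundant genes. The median tested gene was at 12.3 FPKM in syd-5 and 13.1 FPKM in WT. Of the 5 genes below that median in WT, 4 fell (YAB2, KAN2, KAN3 and AS2), and the other was KAN1. Of the 4 genes above it (AS1, YAB3, YAB5 and FIL), 0 fell, and 0 were lower at an unadjusted p under 0.05 in the authors' deposited table. YAB5 came close to that limit (log2 -0.32, with p = 0.0545 in the authors' deposited table), closer than KAN1 (p = 0.06445). This split was noticed after the values were seen and carries no test. YAB2, at 12.5 FPKM in WT, lay only just below the median. The shares of all tested genes that fell below and above the median were not computed. It is therefore not known whether the split is particular to these genes. The order of levels differed between the genotypes. In syd-5 it ran AS1, YAB3, FIL, YAB5, KAN1, YAB2, KAN2, AS2 and KAN3, and in WT it ran AS1, YAB3, YAB5, FIL, YAB2, KAN1, KAN3, KAN2 and AS2. KAN3 in syd-5 stood above 4.22% of tested genes, against 29.5% in WT.

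The 9 genes have 18 flanking genes on the chromosome, the nearest listed ones on either side that do not overlap them. AT5G16550, which overlaps KAN1, is not counted. Of the 18 flanking genes 12 were tested, 2 rose, 1 fell and 9 were not called. The called share of the tested ones, 25.0%, lies near the 32.1% of all tested genes. Beside KAN1, which was lower in syd-5 without a call, ZFN3 rose to 27.9 FPKM in syd-5, against 21.8 FPKM in WT (log2 0.36, with q = 0.0477 in the authors' deposited table). Beside FIL, AT2G45180 rose to 2237 FPKM in syd-5, against 942 FPKM in WT (log2 1.25, with q = 0.000351 in the authors' deposited table), while GOS12 on the other side was not called (log2 0.13). Beside AS2, KOR2 fell to 0.745 FPKM in syd-5, against 1.66 FPKM in WT (log2 -1.16, with q = 0.00123 in the authors' deposited table), and DEG3 was not tested. Both genes next to YAB2 were uncalled, HDA08 at 34.6 FPKM in syd-5 and 27.3 FPKM in WT, and SSL3 at 14.1 FPKM in syd-5 and 16.6 FPKM in WT. HDA08 came close to the threshold (q = 0.0505 in the authors' deposited table), with a difference opposite in sign to that of YAB2. RCD1, next to KAN2, was at 95.1 FPKM in syd-5 and 105 FPKM in WT and was not called, and AT1G32250 on the other side was listed at 0 in both. The genes on both sides of KAN3, AT4G17690 and AT4G17700, were also listed at 0 in both genotypes.

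**Figure D3:**
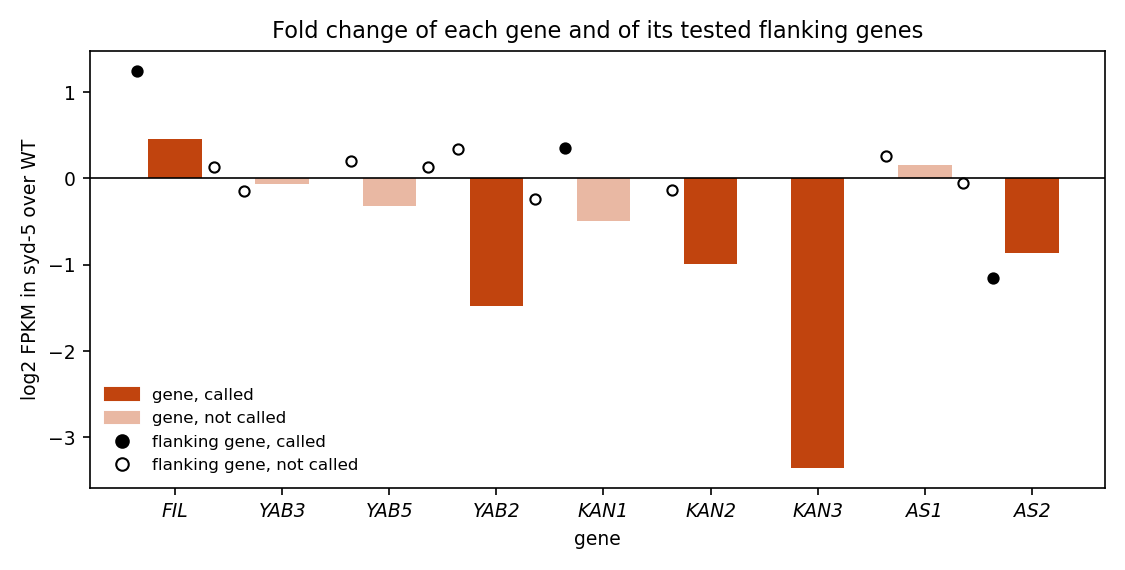
Log2 FPKM in syd-5 over WT for each gene (bars, dark where called) and its flanking genes (points, filled where called). A flanking gene is the nearest listed gene on either side that does not overlap. Flanking genes the authors did not test have no point. The bar of KAN3 reaches -3.35 with no tested neighbour, and the 3 called neighbours stand beside FIL (1.25) and AS2 (-1.16), with the sign of their member gene, and beside KAN1 (0.36), with the opposite sign.

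Genes that work with or against these factors gave a mixed picture. Of 33 tested genes in 7 pathway lists, 5 rose, 5 fell and 23 were not called. The called share was 30.3%, near the 32.1% of all tested genes, and the median log2 fold change was -0.07. The lists are described here by their members. The counts of each list stand against 14.1% of all tested genes called higher and 18.0% called lower.

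On the adaxial side, 2 of 9 tested HD-ZIP III and ZPR genes rose, 2 fell and 5 were not called (median log2 -0.07). PHB, an adaxial identity factor, rose to 23.7 FPKM in syd-5, against 16.1 FPKM in WT (log2 0.56, with q = 0.000351 in the authors' deposited table). PHV, its close relative, fell to 8.56 FPKM in syd-5, against 14.3 FPKM in WT (log2 -0.75, with q = 0.000351 in the authors' deposited table). ATHB8, a vascular member, rose to 18.5 FPKM in syd-5, against 13.9 FPKM in WT (log2 0.42, with q = 0.0148 in the authors' deposited table). ZPR1, which encodes a small protein that blocks HD-ZIP III dimers, fell to 12.8 FPKM in syd-5, against 24.4 FPKM in WT (log2 -0.93, with q = 0.000351 in the authors' deposited table). The largest log2 difference of this list was that of ZPR2, at 0.309 FPKM in syd-5 and 2.10 FPKM in WT. It was not called (log2 -2.77, with q = 0.382 in the authors' deposited table).

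In a list of abaxial auxin response factors, the small RNA pathway that limits them, and AGO10, 1 of 8 tested genes rose. In the same list 2 fell and 5 were not called (median log2 0.03). ARF3 (ETT), which acts with KANADI proteins and is repressed by AS1 and AS2, rose to 34.8 FPKM in syd-5, against 18.6 FPKM in WT (log2 0.90, with q = 0.000351 in the authors' deposited table). ARF4 was not called, at 15.6 FPKM in syd-5 and 15.5 FPKM in WT. AGO7, the Argonaute that starts production of the small RNAs against ARF3 and ARF4, fell to 0.531 FPKM in syd-5, against 2.17 FPKM in WT (log2 -2.03, with q = 0.000351 in the authors' deposited table). The AGO7 value in syd-5 stood above 4.18% of tested genes, so that the size of its fall rests on a low value. The precursor of the small RNAs against ARF3 and ARF4, TAS3A, was not called, at 43.8 FPKM in syd-5 and 38.4 FPKM in WT. AGO10, which sequesters the microRNAs against HD-ZIP III transcripts, fell to 15.9 FPKM in syd-5, against 21.2 FPKM in WT (log2 -0.42, with q = 0.0103 in the authors' deposited table).

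The class 1 KNOX genes, which AS1 and AS2 keep out of leaves or which maintain the meristem, held 1 fall and 0 rises among 4 tested. STM, the meristem gene, fell to 3.31 FPKM in syd-5, against 6.13 FPKM in WT (log2 -0.89, with q = 0.000351 in the authors' deposited table). Among the direct AS1 and AS2 targets, KNAT1 was at 6.73 FPKM in syd-5 and 8.68 FPKM in WT (q = 0.0889 in the authors' deposited table), and KNAT2 at 1.94 FPKM in syd-5 and 1.89 FPKM in WT (q = 0.946). KNAT6 was at 8.24 FPKM in syd-5 and 5.98 FPKM in WT and missed the threshold narrowly (log2 0.46, with p = 0.0164 and q = 0.0507 in the authors' deposited table). It passed at q = 0.04999 when p was readjusted over the genes that averaged 1 FPKM or more.

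The authors called 0 of the 5 tested genes that act upstream of AS1 and AS2 or with them (BOP1, BOP2, JLO, HIRA and DRL1, log2 -0.59 to 0.35). Their unadjusted p-values in the authors' deposited table were below 0.05 for BOP2 (p = 0.0257) and HIRA (p = 0.0495). Of the 5 corepressor genes whose products bind YABBY proteins, SLK2 rose to 27.4 FPKM in syd-5, against 21.3 FPKM in WT (log2 0.36, with q = 0.0379 in the authors' deposited table), a call lost when the untested genes enter the adjustment (q = 0.0634), and LUG, LUH, SEU and SLK1 were not called. WOX1, which promotes growth of the blade margin, rose to 5.21 FPKM in syd-5, against 2.22 FPKM in WT (log2 1.23, with q = 0.000662 in the authors' deposited table). WOX3 (PRS) was not tested, at 0.0523 FPKM in syd-5 and 0.0806 FPKM in WT.

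**Figure D4:**
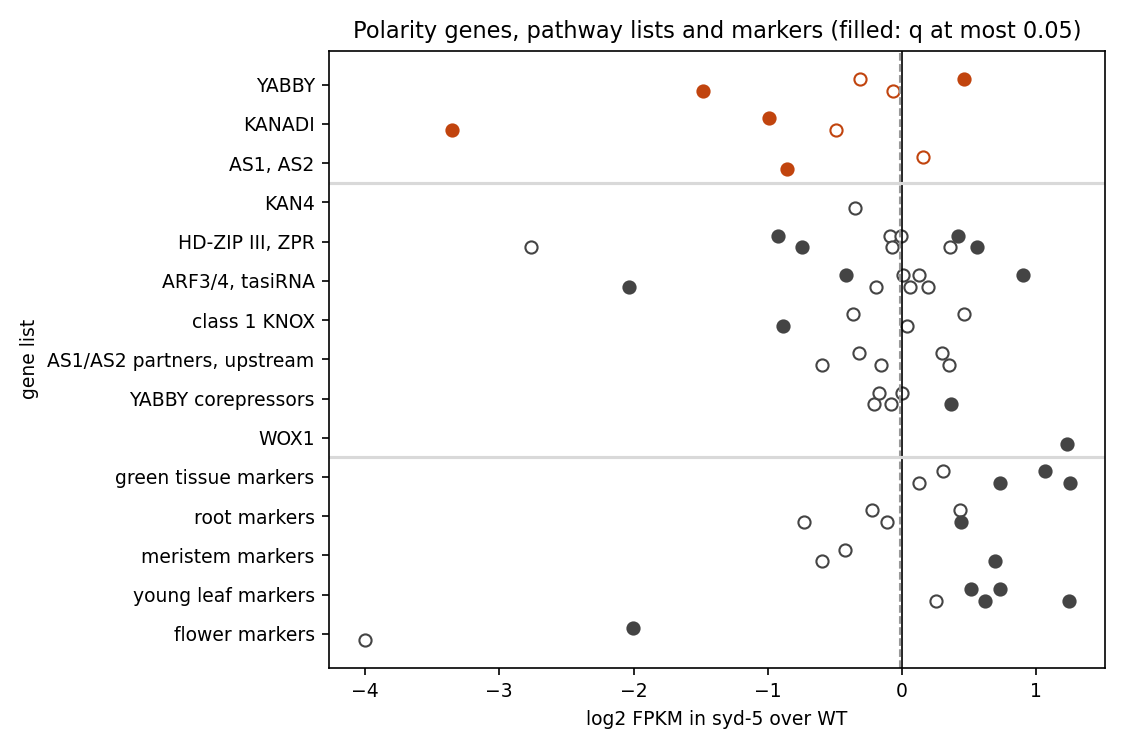
Log2 FPKM in syd-5 over WT of each tested gene with a finite fold, by list (rows), filled where q was at most 0.05; the dashed line is the median of all tested genes, -0.02, and AP1, listed at 0 in syd-5, has no point. The 3 KANADI genes all lie left of 0, KAN1 without a call. The points of the HD-ZIP III and ZPR row lie on both sides, and the 5 young leaf markers lie right of 0.

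Markers of tissues that a seedling holds were read beside these results, with shares of all tested genes of 14.1% higher and 18.0% lower in syd-5. Of 5 markers of green tissue 3 rose and 2 were not called, and their summed FPKM was 16607 in syd-5 and 12411 in WT. Of 5 markers of young growing leaves (ANT, AN3, GRF1, GRF2 and GRF5) 4 rose and 1 was not called, and their sum was 52.4 FPKM in syd-5 and 32.6 FPKM in WT. Of 5 tested root markers 1 rose and 4 were not called, with sums over all 6 listed of 24.9 FPKM in syd-5 and 24.1 FPKM in WT. Among markers of the shoot meristem and organ boundaries, CLV1 rose, CUC1 and CUC2 were not called, CLV3 was listed at 0 in both genotypes, and WUS at 0 in syd-5 and 0.0160 FPKM in WT. Flower markers were low, with a sum over 4 genes of 0.361 FPKM in syd-5 and 3.43 FPKM in WT, and AP1 was listed at 0 in syd-5. AP1 and AP3 were called lower, LFY was not called (q = 0.413 in the authors' deposited table) and AG was not tested. The part of any of these tissues in the results above was not tested.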

How the data were processed

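RNA-seq of syd-5 and WT seedlings was compared. The authors deposited 1 value per gene and genotype, read here as FPKM from the table's layout, and a p-value and q-value per gene. The sources used here do not name the program. Bowtie2, TopHat2 (version 2.0.4), bedtools and TAIR10 are named, without roles, in the submitters' processing notes. Readjusting the authors' p-values by Benjamini-Hochberg over the 19868 tested genes gave their q-values to within 5.22e-07. As no value per library was given, the planned fallback was used: no test was made here and the authors' q was taken at 0.05. Depth is unknown. Fold changes had no pseudocount. File starts lay 1 below the RefSeq start for 12528 IDs and at it for 132 and differed otherwise for the rest. They were read as counted from 0 and printed counted from 1. Of the 9 spans, those of YAB2 and AS2 then start where RefSeq does. The KAN1 span starts 1513 bp before the RefSeq start, the largest such difference of the 9. Names came from RefSeq (assembly TAIR10.1; 32208 of 33201 IDs matched). AGO1 occurs only in an entry joined with another gene and was left out.

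The members and the gene lists were chosen with earlier results of these data known. The text names all 9 members, SYD, the genes flanking called members, and up to 4 called genes of each pathway list by smallest q. Other genes were named after their values were seen. The adjustment was checked on simulated p-values. Tables were made with Python 3.11.15 and pandas 2.3.3. Alternatives varied the q threshold, the adjustment, a minimum level, a minimum fold, shared spans, the pseudocount and the scaling.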

Additional observations from a re-analysis of the deposited data

How the results depend on the processing

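A pseudocount cannot turn the sign of a fold change, so that it does not bear on the stability of directions. Each scaling moves every gene by 1 constant on the log2 scale, which can turn the sign only of fold changes smaller than that constant. None of the 9 genes could change sign under either scaling, so that the scalings do not bear on the stability of directions either. Only YAB3 (log2 -0.07) had a fold change smaller than the larger constant, which moved it away from 0. Scaling to equal FPKM sums shifted every log2 fold change by -0.13, which put the median of the 9 genes at -0.62 and of the pathway lists at -0.20, AS1 at 0.03 and FIL at 0.33. With a pseudocount of 1 KAN3 was at -2.07 in place of -3.35. At q of at most 0.01 the 9 genes held 3 falls and 0 rises, without AS2 and FIL, all tested genes 2648 falls and 1850 rises, and the pathway lists 4 falls and 3 rises, without AGO10, ATHB8 and SLK2. With a 2-fold minimum the 9 genes held 2 falls (KAN3 and YAB2) and 0 rises, all tested genes 1644 falls and 654 rises, and the pathway lists 1 fall and 1 rise. Adjusting over all listed genes or requiring a mean of at least 1 FPKM changed no call among the 9 genes. Leaving out shared spans kept the authors' q and removed only KAN1 of the 9, which was not called. That setting could therefore change no call among them. In the pathway lists the adjustment over all listed genes removed SLK2 (4 rises) and the minimum mean added KNAT6 (6 rises). No paired analysis was possible because the table gives no value per library, and for the same reason no library could be left out.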
